A study of Mus musculus with 40 samples.

Results

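The mRNAs of 10 RNA-binding proteins were followed through whole-cell, ribosome-bound and synaptoneurosomal RNA of 2 mouse TRAP lines. The genes were chosen by name, as 3 protein families of neuronal RNA control and 1 transport protein, and were 10 of the 41388 genes counted. They were the FMR family Fmr1, Fxr1 and Fxr2, the cytoplasmic polyadenylation element binding proteins Cpeb1, Cpeb2, Cpeb3 and Cpeb4, the Staufen proteins Stau1 and Stau2, and the purine-rich element binding protein Pura. All 10 passed the filter on low counts in each comparison. In every mouse a Cre-dependent reporter gave GFP-tagged Rpl10a, a protein of the large ribosomal subunit, to the cells in which Cre had acted. RBP4-TRAP mice carried the transgene Tg(RBP4-cre)KL100Gsat/Mmcd, active in layer 5 pyramidal neurons of the cortex, and VGAT-TRAP mice carried Cre at Slc32a1, active in GABAergic neurons. Forebrains were taken at 21 d of age, with 2 to 3 brains of both sexes in a pool and 5 pools per line, and the labels call the tissue cortex. A VGAT-TRAP forebrain pool may therefore include GABAergic neurons of the striatum besides cortical interneurons, and the reporter stayed on in any cell that had expressed Cre earlier. There was no treatment, and both lines carried the reporter, so that the comparisons lay between fractions and between Cre lines.

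From each pool 4 libraries were made. WCH was the RNA of the whole-cell homogenate, TRAP was the RNA captured from WCH with the tagged ribosomes, SNF was the RNA of a synaptoneurosomal fraction enriched in pinched-off synaptic terminals, and ST (SynapTRAP) was the RNA captured with tagged ribosomes from SNF. TRAP against WCH asked which mRNAs were on the ribosomes of the labeled neurons, SNF against WCH which mRNAs were in the synaptoneurosomes of all cells, ST against SNF which were captured there with the tagged ribosomes, and ST against TRAP which differed between the captures from the synaptoneurosomes and from the whole homogenate.

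FMRP, the product of Fmr1, binds many brain mRNAs and is best known as a repressor of their translation near synapses, and its loss causes fragile X syndrome. FXR1P and FXR2P are its closest relatives. CPEB proteins bind a U-rich element in 3′ UTRs, the cytoplasmic polyadenylation element (CPE), and control poly(A) tail length and translation of the mRNAs that hold it. Staufen proteins bind double-stranded RNA and travel in dendritic RNA granules, where Pur-alpha is also found, and Stau1 in addition starts a decay pathway that uses Upf1.

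Since CPEB proteins act on CPEs, the 3′ UTRs of the 10 genes were searched for the letters TTTTAT and TTTTAAT on the sense strand, in the GENCODE M21 transcripts of GRCm38. Of the 10 genes, 8 held a match, against 59.5% of the 19924 genes with a 3′ UTR of at least 100 bases. The 2 shares were not matched for length, and a longer 3′ UTR has more room for a match. The median 3′ UTR of all genes was 1042 bases, and of the 10 only that of Fxr2 was shorter. Those of Cpeb2, Cpeb3, Cpeb4 and Pura lay at percentiles 91.7, 90.4, 93.2 and 94.4 of length. The 3′ UTR of Cpeb2 had 24 matches in 3778 bases (6.35 per kb) and that of Cpeb4 17 in 4102 bases (4.14 per kb), whereas that of Cpeb1 had 4 in 1315 bases (3.04 per kb) and that of Cpeb3 6 in 3569 bases (1.68 per kb). The median of all genes was 0.768 per kb, and over all 3′ UTR bases together it was 1.33 per kb, so that Cpeb3 lay close to the latter. Pura had 12 matches in 4408 bases, Fmr1 4 in 2288, Stau2 2 in 2291 and Fxr1 1 in 1389. The 3′ UTRs of Fxr2 (598 bases) and Stau1 (1795 bases) held neither string. Within the last 100 bases only Fmr1 had a match, against 17.7% of all genes, and 6 of the 10 genes had AATAAA, the polyadenylation signal, there, against 64.3%. The CPE strings exclude each other at a given start. The match nearest the 3′ end of each CPEB mRNA is shown because these are the proteins named for the element. It is printed 5′ to 3′ on the sense strand with 10 bases on each side and the match in capitals. A match is a run of letters and not a bound site.
Cpeb1: tgacttttctTTTTAATttaacgatta
Cpeb2: atttagtttaTTTTATtgttatcttc
Cpeb3: aataaattaaTTTTATgatgctaatt
Cpeb4: gtaattcattTTTTATtaaagtcatt
The Cpeb1 window lay at chr7:81347258-81347284 (minus strand, 242 bases from the end), that of Cpeb2 at chr5:43289556-43289581 (plus strand, 153 bases), that of Cpeb3 at chr19:37021508-37021533 (minus strand, 227 bases) and that of Cpeb4 at chr11:31935408-31935433 (plus strand, 211 bases).

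Total counts were between 14259535 and 22037703 per library, of which mitochondrial genes took 0.0584% to 41.9%. Levels are in cpm (counts scaled to the library size) after mitochondrial, rRNA and tRNA genes were left out, and 1 count was worth 0.0455 to 0.112 cpm. In TRAP, Slc32a1 was at 1.49 to 4.99 cpm in the RBP4 line and 48.4 to 77.2 cpm in the VGAT line, and Slc17a7 at 432.7 to 638.9 and 24.6 to 155.1 cpm, as the labels have it. The library labelled RBP4 ST replicate 4 had Slc32a1 at 49.9 cpm, where the highest other RBP4 ST library had 19.7 cpm. Slc32a1 was at 24.15 to 44.24 cpm in RBP4 SNF, and Slc17a7 at 550.4 to 1084 cpm over all RBP4 ST libraries. Slc32a1 alone does not show that the label is wrong. ST results that changed without this library are given both ways. Markers of other cells and of nuclei moved between fractions. The summed level of 6 oligodendrocyte markers was 6387 to 9866 cpm in WCH, 388.2 to 5508 cpm in TRAP, 12190 to 18770 cpm in SNF and 31800 to 54690 cpm in ST over both lines. The sum of 6 astrocyte markers was 2200 to 5296, 159.6 to 1650, 8522 to 24780 and 3738 to 20470 cpm in the same order. The sum of the nuclear RNAs Malat1, Meg3 and Neat1 was 11000 to 34130, 344.9 to 5330, 1450 to 11650 and 682.7 to 8509 cpm. The sum of 4 GABAergic markers (Slc32a1, Gad1, Gad2 and Sst) was 5673 to 7757 cpm in VGAT TRAP but 737.8 to 2674 cpm in VGAT ST, and 227.1 to 580.6 cpm in RBP4 TRAP against 364.1 to 820.4 cpm in RBP4 ST. That of 4 layer 5 and excitatory markers (Slc17a7, Fezf2, Etv1 and Bcl11b) was 183.3 to 337.2 cpm in VGAT TRAP and 542.1 to 849.5 cpm in VGAT ST. In the RBP4 line it was 664.8 to 1034 and 653.3 to 1202 cpm. Slc17a7 alone reached 396.4 to 712.7 cpm in VGAT ST and 550.4 to 1084 cpm in RBP4 ST. The sum in ST was therefore in large part Slc17a7 and does not describe the layer 5 genes Fezf2, Etv1 and Bcl11b. The 4 markers did not move together, as in RBP4 SNF against WCH 1 was higher and 3 were lower. The ranges of the lines overlapped in ST for both neuron lists and in TRAP for neither, so ST against TRAP cannot be read as a comparison within the labeled neurons alone. ST against SNF cannot be read as capture from the labeled neurons alone either. The oligodendrocyte sum was higher in ST than in SNF, and the GABAergic sum of VGAT SNF (770 to 1353 cpm) overlapped that of VGAT ST. None of these markers was at 0 in all libraries of a group, and their part in the results was not tested. In such bulk RNA, fewer cells of a type and less RNA per cell cannot be told apart.

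Between genes, levels were compared per kb of exon. The reads favour 3′ ends and may not scale with exon length, so the order also depends on the length of each model. In RBP4 WCH Fxr1 had a mean of 36.2 cpm over 2323 bases and Fmr1 57.15 cpm over 8966 bases. Per kb Fxr1 nevertheless stood above Fmr1. Averaged over the 8 groups, Pura was highest (26.2 cpm per kb), followed by Stau2 (22.8), Fxr1 (13.1), Cpeb4 (8.66), Fxr2 (8.59), Cpeb1 (8.54), Stau1 (8.44), Cpeb2 (6.57), Fmr1 (4.54) and Cpeb3 (3.42). In RBP4 WCH, where Cpeb1 (17.8) followed Stau2, every gene overlapped its neighbour in that group's own order over the 5 libraries, from Pura (33.7) to Cpeb3 (4.72). In VGAT WCH the libraries parted between Stau2 and Fxr1, between Stau1 and Cpeb2, and between Fmr1 and Cpeb3. The order was different on ribosomes. In RBP4 TRAP Stau2 had 24.9 and Pura 17.5 cpm per kb, the genes from Pura down to Cpeb4 (6.49) overlapped in steps, and Fmr1 (4.20) and Cpeb3 (2.02) each stood apart below. In VGAT TRAP Stau2 (29.3) and Pura (23.9) stood apart from Fxr1 (15.5), Fxr2 (14.4) and Stau1 (10.9), and these from Cpeb1 (5.69), Cpeb4 (5.12), Cpeb2 (3.89), Cpeb3 (3.75) and Fmr1 (3.60). Cpeb3 was thus lowest of the 10 in RBP4 TRAP, while in VGAT TRAP the lowest mean, that of Fmr1, was not apart from Cpeb3. The Pura model in the files runs 8986 bases past the Pura gene of M21 and covers the neighbouring gene Igip, so reads of both are in the Pura counts and its per-kb level is uncertain. The Fxr1 model stops 980 bases short of the M21 end, and 178 of its exon bases are shared with Dnajc19 on the other strand, in libraries that do not mark strand.

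**Figure D1:**
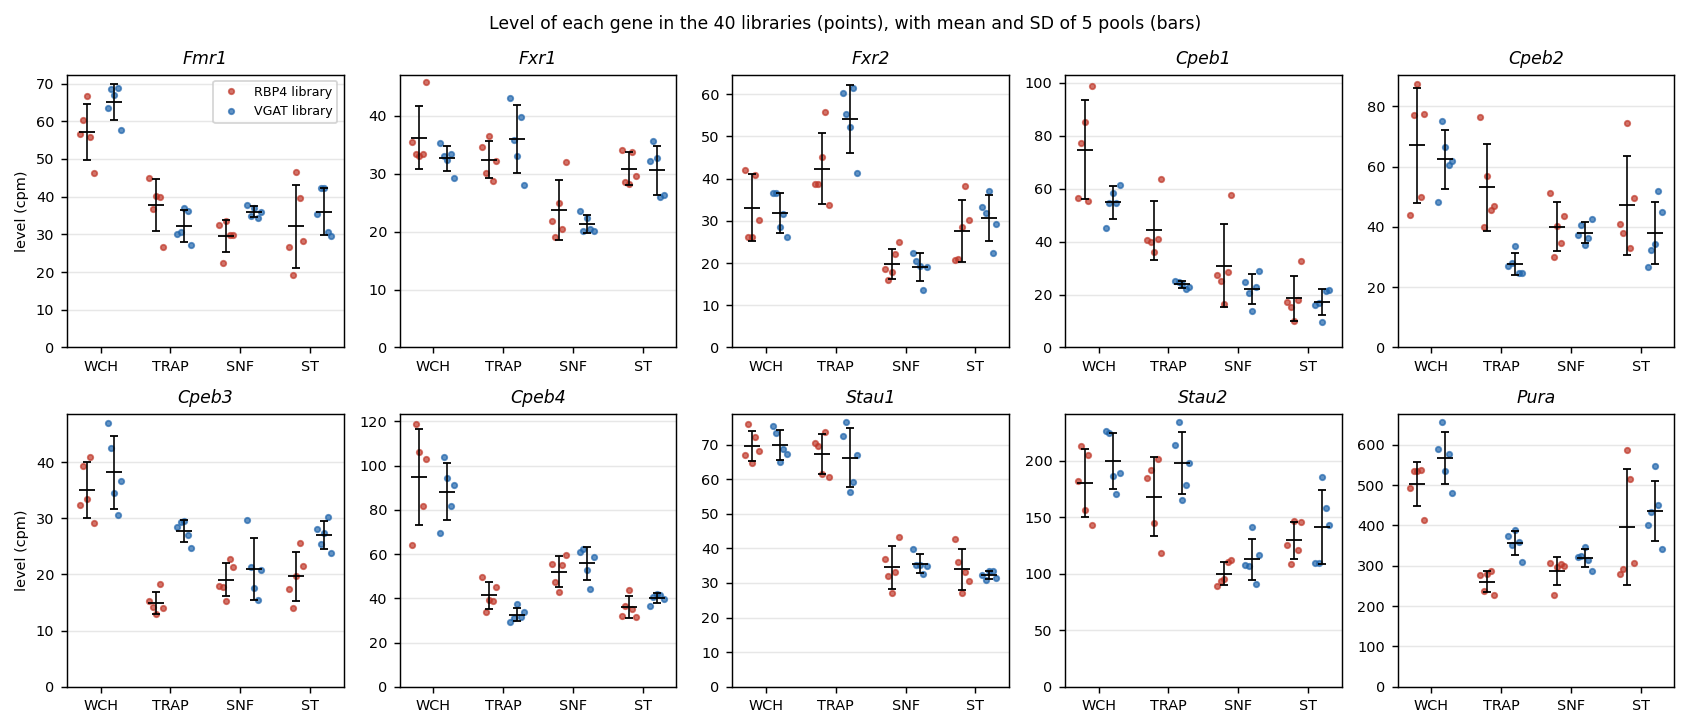
Level of each gene (cpm, linear axis from 0) in the 40 libraries, grouped by fraction, with RBP4 libraries in red, VGAT libraries in blue and bars for the mean and SD of 5 pools. Stau1 sits near 70 cpm in WCH and TRAP and near 34 cpm in SNF and ST of both lines, and Cpeb1, Cpeb2 and Cpeb3 separate the lines in TRAP.

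**Figure D2:**
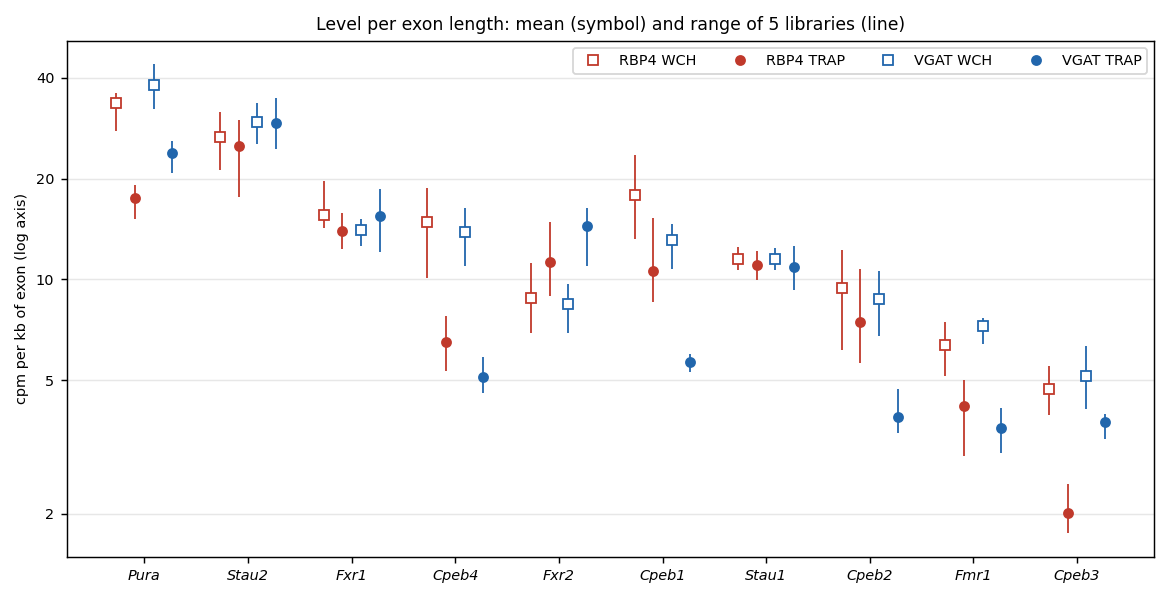
Mean level per kb of exon (cpm per kb, log axis) of the 10 genes in WCH (open squares) and TRAP (filled circles) of the RBP4 line (red) and the VGAT line (blue), with lines for the range of 5 libraries. Pura and Stau2 have the highest per-kb means in each of the 4 groups shown, and Cpeb3 or Fmr1 has the lowest. The order depends on exon length as well as on counts.

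On the ribosomes of the labeled neurons, mRNAs of CPEB4, CPEB3, CPEB1, Pur-alpha and FMRP had a lower share than in the homogenate in both lines, while those of the Staufen proteins and FXR1P were called in neither. A gene was called changed at an adjusted p of at most 0.05 (edgeR's quasi-likelihood test, Benjamini-Hochberg over all genes tested). In RBP4 TRAP against RBP4 WCH, 5 of the 10 genes were lower, where 31.5% of all genes were, and none was higher (0 at an unadjusted p under 0.05, while DESeq2 called Fxr2 higher). In VGAT TRAP against VGAT WCH, 6 were lower, where 41.8% of all genes were, and Fxr2 was higher, as were 21.0% of all genes. The median log2 difference of all genes was −0.34 for RBP4 and −0.31 for VGAT libraries, and −0.05 and −0.06 with TMM factors. With these factors the counts were 1 higher and 3 lower of the 10 in the RBP4 line, and 2 higher and 5 lower in the VGAT line. Only Cpeb4 and Pura were then called lower in both lines, as Fmr1 and Cpeb1 lost their calls in RBP4 and Cpeb3 in VGAT. Of all genes, 3296 of 17043 were then higher and 3815 lower in the RBP4 line. In the VGAT line 4987 of 16990 were higher and 5530 lower.

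In SNF against WCH all 10 genes were lower in both lines, where 36.1% (RBP4) and 45.2% (VGAT) of all genes were lower. The smallest fall was that of Fxr1 (log2 −0.61 in RBP4 and −0.62 in VGAT), and the largest that of Cpeb1 (−1.27 and −1.30). The median of all genes was itself at −0.50 and −0.52, so that relative to it the range was −0.12 to −0.77 in RBP4 and −0.10 to −0.79 in VGAT. TMM factors left 6 and 7 of the 10 calls and DESeq2 left 4 and 5. With TMM factors 3048 of 17043 genes were lower in RBP4 and 4747 of 16990 in VGAT. Cpeb1, Cpeb3 and Stau1 kept their calls in both lines under each alternative, whereas Fxr1 and Fxr2 lost theirs with TMM factors in both, and Cpeb2 in the RBP4 line lost its call with DESeq2, with TMM factors and without pool 2 (−0.60).

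In ST against SNF few of the 10 changed. Cpeb4 was the 1 gene called in the RBP4 line and was lower, as were 5.46% of all genes. In the VGAT line Fxr1, Fxr2 and Pura were higher, as were 16.3% of all genes, and Cpeb4 was lower, as were 11.2%. TMM factors gave 2 higher and 2 lower there, and with no genes left out of the library sizes 5 were higher and none lower. With TMM factors 1987 of 16990 genes were higher in the VGAT line and 2480 lower.

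In ST against TRAP, which uses the TRAP libraries of the first comparison and the ST libraries of the third, Stau1, Fxr2 and Cpeb1 were lower in both lines. Of the 10 genes 3 were lower in the RBP4 line (29.1% of all genes) and 4 in the VGAT line (34.0%). Pura alone was higher in the RBP4 line (26.0% of all genes), and Pura, Cpeb2 and Cpeb4 in the VGAT line (37.5%). With no genes left out of the library sizes the VGAT counts became 0 higher and 5 lower.

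**Figure D3:**
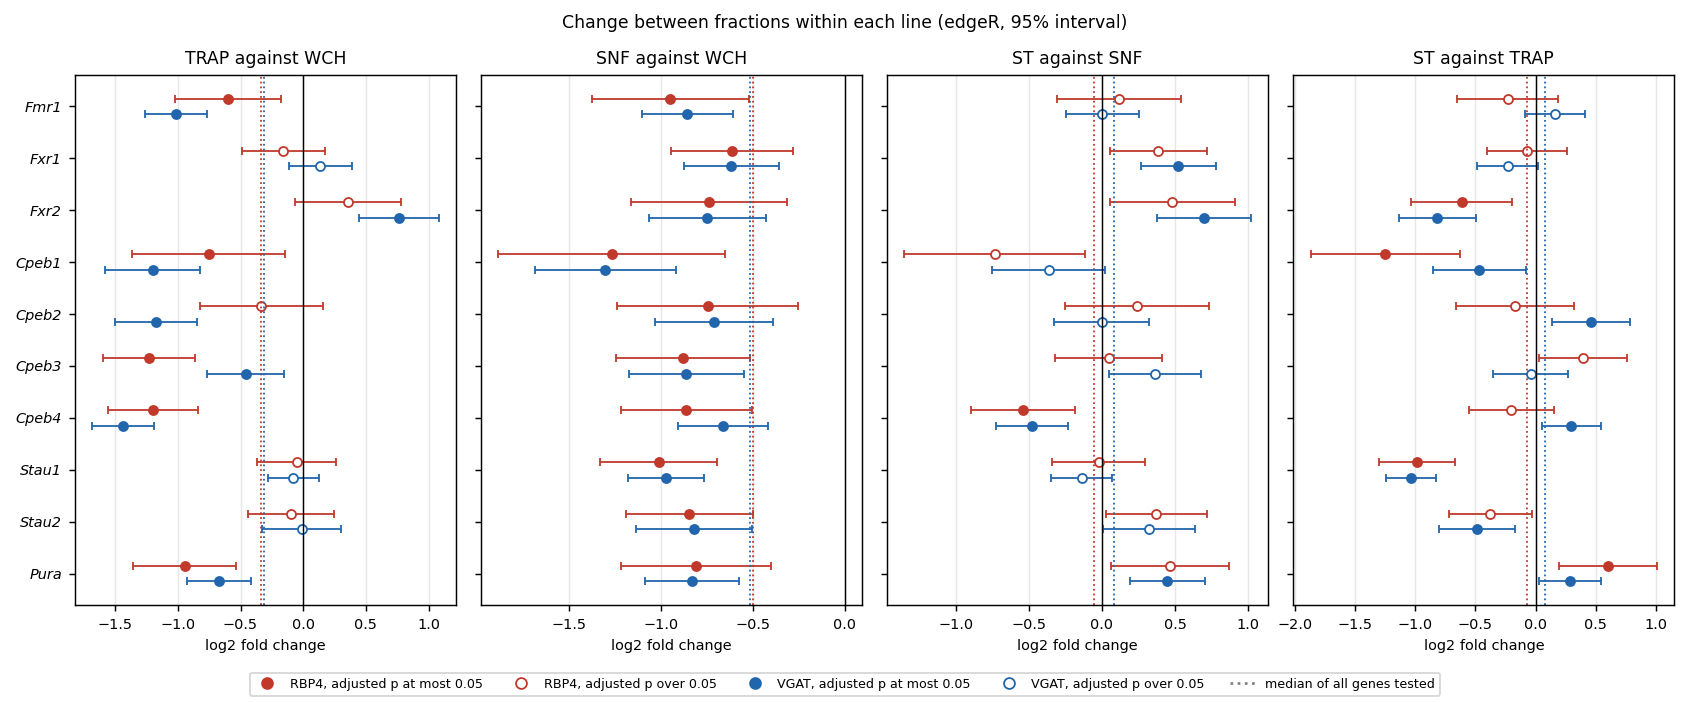
Log2 difference of each gene between fractions of the RBP4 line (red) and the VGAT line (blue) with its 95% interval from edgeR, filled where the adjusted p is at most 0.05, with dotted lines for the median of all genes tested in each line. All 10 genes lie below 0 in SNF against WCH in both lines, while in TRAP against WCH Stau1 and Stau2 lie near 0 and Cpeb4 at −1.20 and −1.44.

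Within the FMR family the 3 mRNAs differed in TRAP. Fmr1 stood at 56.7, 60.4, 66.8, 55.8 and 46.1 cpm in the 5 RBP4 WCH libraries and at 45.0, 36.7, 40.2, 39.997 and 26.6 cpm in RBP4 TRAP, in the order of pools 1 to 5. In the VGAT line the levels were 63.5, 68.6, 67.0, 68.9 and 57.6 cpm in WCH and 30.1, 30.6, 37.1, 36.2 and 27.2 cpm in TRAP. In both lines every TRAP library lay below every WCH library. Fmr1 fell by 0.60 on the log2 scale in RBP4 TRAP (SE 0.204, adjusted p = 0.0228, edgeR) and by 1.01 in VGAT TRAP (SE 0.119, adjusted p = 3.8e-07), or by 0.26 and 0.70 more than the median gene. The RBP4 call was lost with TMM factors (log2 −0.31), with DESeq2, with no genes left out and without pool 3 (−0.56) or pool 4 (−0.63), with adjusted p between 0.0032 and 0.267 over the alternatives. In SNF Fmr1 was lower than in WCH by 0.95 in RBP4 and 0.86 in VGAT on the log2 scale, and ST against SNF gave log2 0.12 (95% interval −0.31 to 0.54) and 0.0036 (−0.24 to 0.25), with no call.

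Fxr2 was higher on ribosomes in the VGAT line. Its levels in VGAT WCH were 36.6, 36.5, 28.6, 31.7 and 26.1 cpm, and in VGAT TRAP 60.3, 55.3, 52.4, 61.6 and 41.4 cpm. All 5 TRAP libraries lay above all 5 WCH libraries. The rise was 0.76 on the log2 scale (SE 0.152, adjusted p = 0.000196, edgeR), 1.08 over the median gene, and it was called under all 12 alternatives. In RBP4 TRAP Fxr2 had 33.7 to 55.7 cpm against 26.1 to 42.1 cpm in WCH, groups that overlapped, and its log2 difference of 0.36 (95% interval −0.06 to 0.78) was called with TMM factors (0.65, adjusted p = 0.0106, over a range of 0.0033 to 0.425) and DESeq2 only. ST then held less Fxr2 than TRAP. The VGAT ST libraries had 33.2, 31.8, 37.1, 22.4 and 29.3 cpm, all below the TRAP libraries of the line (log2 −0.82, SE 0.153, adjusted p = 6.15e-05), and above all VGAT SNF libraries, which had 13.6 to 22.4 cpm (log2 0.70, SE 0.155, adjusted p = 0.00163). In the RBP4 line the fall from TRAP to ST was 0.61 on the log2 scale (SE 0.204, adjusted p = 0.0137), the groups overlapped, and the call was lost without pool 1 (−0.56, adjusted p = 0.0564, over a range of 0.0034 to 0.0564).

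Fxr1 was near level between WCH and TRAP. It had 33.0 to 45.8 cpm in RBP4 WCH and 28.7 to 36.6 cpm in RBP4 TRAP, and 29.3 to 35.3 and 28.0 to 43.1 cpm in the VGAT line. Both pairs of groups overlapped, with log2 differences of −0.16 (95% interval −0.49 to 0.17) and 0.14 (−0.12 to 0.39). With TMM factors the RBP4 difference turned to 0.13, with no call, and the VGAT difference became 0.39 and was called, with adjusted p over the alternatives between 0.012 and 0.573. In VGAT ST Fxr1 had 32.2, 35.6, 32.7, 26.0 and 26.3 cpm and in VGAT SNF 23.5, 20.1, 22.3, 20.5 and 20.1 cpm. Every ST library lay above every SNF library (log2 0.52, SE 0.124, adjusted p = 0.00284), and the call held under all 12 alternatives. In the RBP4 line the same comparison gave log2 0.38 (SE 0.161, adjusted p = 0.128), called under 4 of 13 alternatives (adjusted p from 0.025 to 0.405), among them without pool 5 (0.53), whose SNF library had 32.1 cpm against 19.0 to 24.9 cpm in the others.

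The 4 CPEB mRNAs shared the fall in SNF and are given one by one for the other comparisons. Cpeb4 was lower in TRAP and in SNF than in WCH of both lines. Its RBP4 WCH libraries had 64.2, 119.0, 106.2, 81.7 and 103.0 cpm and its RBP4 TRAP libraries 49.6, 33.9, 39.3, 38.7 and 45.0 cpm. Its VGAT WCH libraries had 69.8, 104.1, 94.3, 82.0 and 91.4 cpm and its VGAT TRAP libraries 29.2, 31.2, 37.4, 31.7 and 33.6 cpm. No TRAP library reached a WCH library of its line. Cpeb4 was 2.30-fold lower in RBP4 TRAP (log2 −1.20, SE 0.174, adjusted p = 1.84e-05) and 2.71-fold lower in VGAT TRAP (log2 −1.44, SE 0.12, adjusted p = 5.88e-09), and both calls held under every alternative. In SNF it kept 42.7 to 59.8 cpm in RBP4 and 44.2 to 62.3 cpm in VGAT.

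Cpeb4 was also lower in ST than in SNF, a comparison that is not limited to the labeled neurons. The VGAT ST libraries had 36.6, 40.6, 42.0, 41.5 and 39.8 cpm, below all VGAT SNF libraries (log2 −0.48, SE 0.118, adjusted p = 0.00404), and the call was lost with no genes left out (log2 −0.25, adjusted p = 0.214, over a range of 4.4e-05 to 0.214). In the RBP4 line ST had 31.6 to 43.9 cpm, overlapping SNF by 1 library each, and the difference of −0.54 (SE 0.172, adjusted p = 0.0449) was near the threshold. That call was lost without the library labelled RBP4 ST replicate 4 (−0.53, adjusted p = 0.0817, over a range of 0.0068 to 0.304) without pool 1 (−0.47), 2 (−0.58), 4 (−0.51) or 5 (−0.44), with TMM factors (−0.47), with no genes left out (−0.33) and with no filter on low counts (−0.54). From TRAP to ST Cpeb4 gained 0.30 on the log2 scale in the VGAT line (SE 0.119, adjusted p = 0.0292), with overlapping groups and a call under 6 of 12 alternatives (adjusted p from 0.0086 to 0.262), lost without pool 2 (0.28), 4 (0.27) or 5 (0.31). The RBP4 value was −0.20 (95% interval −0.56 to 0.15).

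Cpeb3 separated the lines on ribosomes. In RBP4 WCH it had 32.3, 39.3, 33.4, 40.9 and 29.2 cpm and in RBP4 TRAP 15.3, 14.2, 13.0, 18.2 and 14.01 cpm. In VGAT WCH it had 46.9, 42.5, 34.6, 30.6 and 36.6 cpm and in VGAT TRAP 28.4, 29.3, 29.5, 27.1 and 24.8 cpm. The groups did not overlap in either line, but the drop was deeper in RBP4 TRAP, where log2 was −1.23 (SE 0.178, adjusted p = 1.8e-05), than in VGAT TRAP, where it was −0.46 (SE 0.148, adjusted p = 0.0105). Relative to the median gene these were −0.89 and −0.15, and the VGAT call was lost with TMM factors (−0.21), DESeq2 (−0.23) and no genes left out (−0.40), over an adjusted p of 0.0057 to 0.253. In ST the RBP4 libraries had 17.4, 14.02, 19.6, 25.7 and 21.4 cpm and the VGAT libraries 28.0, 25.4, 27.4, 30.3 and 23.8 cpm. From TRAP to ST the log2 difference in RBP4 was 0.39 (SE 0.176, adjusted p = 0.0617), which DESeq2 (0.54), TMM factors (0.49), all 40 libraries in 1 fit and the fit with the pool as a block called (0.39 with the block, adjusted p = 0.0355, over a range of 0.0032 to 0.229), and in VGAT −0.04 (95% interval −0.35 to 0.27). From SNF to ST in the VGAT line the log2 difference of 0.36 was not called (adjusted p = 0.0789) and the blocked fit called it (0.39, adjusted p = 0.0318, over a range of 0.017 to 0.339).

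The mean level of Cpeb1 was highest in WCH of both lines, with TRAP, SNF and ST following in this order. The RBP4 WCH libraries had 56.5, 77.4, 85.2, 55.4 and 98.6 cpm, RBP4 TRAP 40.7, 39.9, 36.02, 41.0 and 63.8 cpm and RBP4 ST 17.3, 15.3, 9.82, 18.0 and 32.6 cpm. Pool 5 had the highest Cpeb1 level of the RBP4 line in each of the 4 fractions. Every ST library was below every TRAP library, with log2 −1.25 (SE 0.3, adjusted p = 0.00116) and a call under all 13 alternatives. In TRAP against WCH the RBP4 groups overlapped, and log2 was −0.75 (SE 0.295, adjusted p = 0.0451). This call was lost with TMM factors (−0.48), DESeq2 (−0.49), no genes left out (−0.66) and without pool 1 (−0.81), 2 (−0.70), 3 (−0.64) or 4 (−0.82), and without the library labelled RBP4 ST replicate 4 its adjusted p was 0.0502, over a range of 0.0027 to 0.143. From SNF to ST the RBP4 difference of −0.73 was not called (adjusted p = 0.117), and the blocked fit called it (−0.72, adjusted p = 0.017, over a range of 0.017 to 0.308).

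In the VGAT line Cpeb1 had 45.2, 54.4, 58.5, 54.7 and 61.3 cpm in WCH, 25.2, 24.9, 24.1, 22.1 and 22.8 cpm in TRAP and 16.2, 16.9, 9.57, 21.5 and 21.9 cpm in ST. These 3 groups did not overlap with each other. The fall in TRAP was 1.20 on the log2 scale (SE 0.184, adjusted p = 1.03e-05) and was called under every alternative. The further fall in ST was 0.47 (SE 0.185, adjusted p = 0.0284), lost without pool 1 (−0.42) or 2 (−0.44) and with all 40 libraries in 1 fit (−0.47), over an adjusted p of 0.0082 to 0.109.

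Cpeb2 was lower on ribosomes in the VGAT line and was not called in the RBP4 line. RBP4 WCH had 43.8, 77.2, 87.4, 49.9 and 77.4 cpm and RBP4 TRAP 76.6, 40.004, 57.0, 45.5 and 47.1 cpm, with overlapping groups and a log2 difference of −0.34 (95% interval −0.82 to 0.15). Without pool 1, whose TRAP library was the highest, it was −0.62 (adjusted p = 0.0616), without pool 2 it was −0.19, and with TMM factors −0.05, over an adjusted p of 0.0616 to 0.889. VGAT WCH had 48.3, 75.3, 66.4, 60.6 and 61.8 cpm and VGAT TRAP 27.1, 28.1, 33.7, 24.8 and 24.8 cpm. There the groups were apart, with log2 −1.17 (SE 0.157, adjusted p = 2e-06) and a call under every alternative. In VGAT ST Cpeb2 was above TRAP by 0.46 on the log2 scale (SE 0.157, adjusted p = 0.0122), at 26.7, 32.4, 34.4, 52.1 and 45.1 cpm. The groups overlapped, and the call was lost without pool 4 (0.28) or pool 5 (0.35), whose ST libraries were the highest, over an adjusted p of 0.0021 to 0.144. RBP4 ST had 33.1 to 74.5 cpm, within log2 −0.17 of TRAP (95% interval −0.66 to 0.32).

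Stau1, which was near level between a fraction and the capture from it, was lower in both synaptoneurosomal fractions. It had 67.1, 75.8, 64.8, 72.3 and 68.1 cpm in RBP4 WCH and 70.4, 69.6, 61.5, 73.6 and 60.6 cpm in RBP4 TRAP. It had 37.1, 31.9, 27.1, 33.0 and 43.3 cpm in RBP4 SNF and 42.8, 35.9, 27.2, 33.0 and 30.6 cpm in RBP4 ST. All 10 synaptoneurosomal libraries lay below all 10 WCH and TRAP libraries. In the VGAT line WCH had 64.9 to 75.4, TRAP 56.2 to 76.4, SNF 32.5 to 39.9 and ST 30.9 to 33.5 cpm, with the same gap.

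The fall of Stau1 from TRAP to ST was 1.98-fold in the RBP4 line (log2 −0.98, SE 0.154, adjusted p = 1.37e-05) and 2.05-fold in the VGAT line (log2 −1.04, SE 0.101, adjusted p = 9.55e-09), and both calls held under all alternatives. From WCH to SNF the fall was 1.01 and 0.97 on the log2 scale. TRAP against WCH gave log2 −0.05 (95% interval −0.37 to 0.26) and −0.08 (−0.28 to 0.13), and with TMM factors 0.24 and 0.18, with no call. Relative to the median gene the differences were 0.29 and 0.23. ST against SNF gave −0.02 (−0.34 to 0.29) and −0.14 (−0.35 to 0.07), the latter called by DESeq2 at −0.28.

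Stau2, the more brain-enriched Staufen, was also lower in SNF than in WCH of both lines. In the RBP4 line it had 143.2 to 213.1 cpm in WCH, 118.7 to 201.3 in TRAP, 88.9 to 112.0 in SNF and 108.4 to 146.5 in ST. In the VGAT line it had 171.0 to 226.4, 165.2 to 234.2, 91.3 to 141.0 and 109.3 to 185.4 cpm. TRAP overlapped WCH in both lines, and ST overlapped TRAP. The log2 difference of TRAP from WCH was −0.10 (95% interval −0.44 to 0.25) in RBP4 and −0.01 (−0.33 to 0.30) in VGAT. From TRAP to ST it was −0.38 (SE 0.167, adjusted p = 0.0587) in RBP4, called under 4 of 13 alternatives (adjusted p from 0.011 to 0.275), among them without pool 3 (−0.48) or 5 (−0.53), and −0.49 (SE 0.152, adjusted p = 0.00685) in VGAT, lost without pool 1 (−0.38) or 2 (−0.34), over a range of 0.00037 to 0.0833. Both SNF falls, 0.85 and 0.82 on the log2 scale, were lost with DESeq2 (−0.41 and −0.37).

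Pura, read with Igip in the same model, was lower in TRAP than in WCH of both lines and higher in ST than in TRAP. The RBP4 libraries had 493.3, 533.9, 535.9, 538.0 and 412.9 cpm in WCH and 275.9, 236.5, 279.6, 286.1 and 226.9 cpm in TRAP. The VGAT libraries had 589.7, 655.4, 534.8, 576.9 and 480.6 cpm in WCH and 373.3, 352.4, 387.9, 359.4 and 310.3 cpm in TRAP. Both pairs of groups were apart, with log2 −0.95 (SE 0.198, adjusted p = 0.000707) and −0.67 (SE 0.123, adjusted p = 8.54e-05), and both calls held under every alternative.

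RBP4 ST had 279.3, 291.4, 587.5, 516.2 and 307.3 cpm of Pura, so that the libraries of pools 3 and 4 stood well above the other three. The gain over TRAP was 0.60 on the log2 scale (SE 0.197, adjusted p = 0.0122). It was lost without pool 3 (0.44) or pool 4 (0.52), and stayed called without the library labelled RBP4 ST replicate 4 alone (0.49, adjusted p = 0.0435), over a range of 0.00081 to 0.077. VGAT ST had 402.0, 433.7, 546.5, 450.4 and 342.6 cpm. That was 0.29 over TRAP on the log2 scale (SE 0.123, adjusted p = 0.0417), called under 4 of 12 alternatives (adjusted p from 0.011 to 0.263) and lost without pool 1 (0.33), 2 (0.28), 3 (0.22) or 4 (0.28). Over SNF, at 286.9 to 345.8 cpm, VGAT ST was higher by 0.45 (SE 0.123, adjusted p = 0.00872), which was lost with TMM factors (0.36), DESeq2 (0.31) and without pool 4 (0.43), over a range of 0.00049 to 0.0904. In all 5 pools of each line the ST library lay above the TRAP library of the same pool.

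Between the lines, 3 CPEB mRNAs differed on whole-cell ribosomes, and none of the 10 was called in the homogenates. RBP4 against VGAT in WCH called 0 of the 10 genes with edgeR (0 at an unadjusted p under 0.05 and 0 with DESeq2), where 0.0118% of all genes were called. SNF also called 0 (0 unadjusted, 0 with DESeq2), where 0.0169% of all genes were. In TRAP, Cpeb1 and Cpeb2 were higher in the RBP4 line, as were 12.9% of all genes, and Cpeb3 and Pura were lower, as were 15.1%. For Cpeb1 all RBP4 TRAP libraries (36.02 to 63.8 cpm) lay above all VGAT TRAP libraries (22.1 to 25.2 cpm), a 1.86-fold difference (log2 0.89, SE 0.23, adjusted p = 0.00344). Cpeb2 likewise had 40.004 to 76.6 against 24.8 to 33.7 cpm, a 1.92-fold difference (log2 0.94, SE 0.22, adjusted p = 0.0014). Cpeb3 was 1.86-fold lower in the RBP4 line (log2 −0.89, SE 0.149, adjusted p = 2.23e-05), with 13.0 to 18.2 against 24.8 to 29.5 cpm. These 3 calls held under all 18 alternatives. Cpeb1 also had uncalled differences of log2 0.45 in WCH (95% interval −0.02 to 0.91) and 0.48 in SNF (−0.04 to 1.004).

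The lower Pura level in RBP4 TRAP (226.9 to 286.1 against 310.3 to 387.9 cpm, no overlap, log2 −0.45, SE 0.172, adjusted p = 0.0489) was called under 8 of 18 alternatives. It was lost without RBP4 pool 1 (−0.47), 2 (−0.42) or 5 (−0.40) and without VGAT pool 1 (−0.43), 2 (−0.45), 3 (−0.42) or 4 (−0.45), over an adjusted p of 0.021 to 0.143. Cpeb4 (log2 0.34, 95% interval 0.04 to 0.64) was called only without RBP4 pool 2 (0.40), and Fxr2 (−0.35, −0.72 to 0.02) only without RBP4 pool 4 (−0.47). Stau1 differed between the lines in TRAP by log2 0.02 (95% interval −0.22 to 0.26) and Stau2 by −0.23 (−0.57 to 0.10). In ST, 0 of the 10 genes were called (1 at an unadjusted p under 0.05, 0 with DESeq2), where 0.325% of all genes were. Cpeb3 had there a log2 difference of −0.46 (SE 0.148, adjusted p = 0.211). Without the library labelled RBP4 ST replicate 4, whose 25.7 cpm was the highest of its group, it was −0.58 (adjusted p = 0.0478, over a range of 0.0478 to 0.377).

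**Figure D4:**
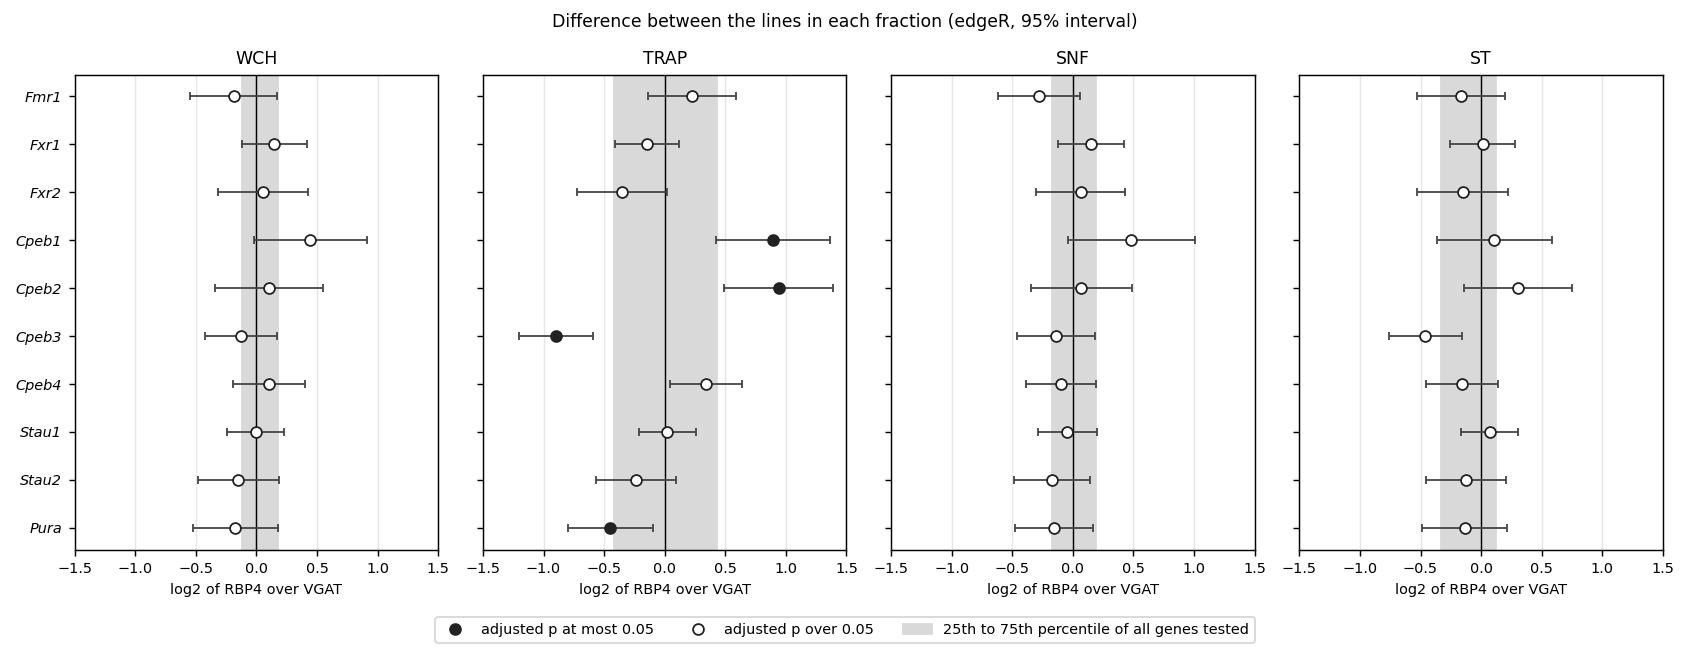
Log2 of RBP4 over VGAT for each gene in the 4 fractions, with 95% intervals from edgeR, filled where the adjusted p is at most 0.05, beside the 25th to 75th percentile of all genes tested (grey). Filled points appear in TRAP alone, with Cpeb1 (0.89) and Cpeb2 (0.94) to the right of 0 and Cpeb3 (−0.89) and Pura (−0.45) to the left.

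Whether a line changed a step between fractions was tested as the difference of the 2 lines' differences. For TRAP less WCH, Cpeb2 was higher in the RBP4 line by 0.84 on the log2 scale (SE 0.29, adjusted p = 0.0497), as were 5.61% of all genes, and Cpeb3 was lower by a log2 of −0.77 (SE 0.223, adjusted p = 0.0152), as were 6.95%. The Cpeb3 call was lost only with no genes left out (−0.74), with adjusted p over the alternatives between 0.0031 and 0.0776. The Cpeb2 call was lost under 9 of 17 alternatives, among them without RBP4 pool 1 (0.55), whose TRAP library was the highest, RBP4 pool 4 (0.80) and each VGAT pool in turn (0.77 to 0.91), over an adjusted p of 0.025 to 0.28. Cpeb1, which differed between the lines in TRAP, had a line difference of 0.45 (95% interval −0.28 to 1.18). For ST less TRAP, 0 of the 10 were called (4 at an unadjusted p under 0.05, 0 with DESeq2), where 10.8% of all genes were, with the lowest adjusted p for Cpeb4 (−0.50, SE 0.205, adjusted p = 0.123, called under no alternative) and then Cpeb1 (−0.78, SE 0.326, adjusted p = 0.128), which was called at −0.91 without RBP4 pool 5. For ST less SNF, 0 of the 10 were called (0 unadjusted, 0 with DESeq2), where 0% of all genes were and 502 genes had an unadjusted p under 0.05. On simulated counts, with the same dispersion for every gene and independent libraries, the test of ST less SNF recovered 56 of 200 genes changed 2-fold. The lack of a call therefore does not show that the lines were alike.

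Genes that act with these proteins were counted as 5 lists, each beside the share and the median of all genes. Of 8 genes of Staufen-mediated decay and the exon junction complex, 6 were lower in ST than in TRAP in each line, where 29.1% (RBP4) and 34.0% (VGAT) of all genes were, with medians of −0.62 in RBP4 and −0.65 in VGAT where all genes had −0.07 and 0.08. Magoh, an exon junction subunit, fell by 1.21 and 1.66 on the log2 scale, and Upf3b, which links the complex to decay, by 0.85 and 1.48. In SNF against WCH 7 of the 8 were lower in each line, against 36.1% and 45.2% of all genes. In TRAP against WCH, Smg1, the kinase of Upf1, was the 1 gene of the list that was lower, by 1.77 and 2.08, while 4 of the 8 were higher in VGAT, as were 21.0% of all genes. From TRAP to ST Smg1 was the 1 gene that rose in VGAT (1.24). Upf3b was higher in VGAT TRAP (0.73, adjusted p = 6.68e-05), and its line difference of TRAP less WCH was −0.92 (adjusted p = 0.00265).

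Of 12 transport granule proteins, 8 were lower in ST than in TRAP in each line (29.1% and 34.0% of all genes), with medians of −0.76 and −1.02 where all genes had −0.07 and 0.08, and 2 were higher (26.0% and 37.5% of all genes). These 2 were Purb and Purg, the relatives of Pura. Purb rose by 2.02 in RBP4 ST (adjusted p = 2.17e-07) and 1.88 in VGAT ST (adjusted p = 1.33e-08), and Purg by 1.53 and 1.24. In TRAP against WCH, whose TRAP libraries are the same, Purb was at −1.31 and −1.28 and Purg at −2.24 and −1.91. Among those that fell from TRAP to ST, the nuclear RNA-binding protein Hnrnpu was at −1.26 and −1.39 on the log2 scale.

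Of 9 FMRP partners, 4 were lower in RBP4 TRAP than in WCH and 5 in VGAT TRAP, not far from the 31.5% and 41.8% of all genes, with medians of −0.51 and −0.69 where all genes had −0.34 and −0.31, and Caprin1 (0.30) and Nufip1 (0.31) were higher in VGAT TRAP. Nufip2 fell by 1.26 and 0.98, and Cyfip1, a subunit of the WAVE complex that also binds FMRP, was lower by 0.93 in RBP4. From TRAP to ST, Cyfip1 gained 1.07 and 1.70, and Ago2, the Argonaute of microRNA complexes, 1.25 and 1.06, while Caprin1 fell by 0.91 and 1.20 and Nufip1 by 1.37 and 1.64. Between the lines in TRAP, Cyfip2 was higher in RBP4 (0.45) and Tdrd3 (−0.57) and Caprin1 (−0.42) lower.

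Of 14 genes of cytoplasmic polyadenylation, 5 were lower in RBP4 TRAP than in WCH, and in VGAT TRAP 6 were lower and 1 higher. These counts were near the shares of all genes for lower (31.5% and 41.8%) and below that for higher (21.0%), and the medians of −0.30 and −0.32 were close to the −0.34 and −0.31 of all genes. Ddx6, a repressor helicase, fell by 1.30 and 0.90, and Eif4enif1, a binder of eIF4E, by 0.95 in VGAT. Pabpc1, the main cytoplasmic poly(A) binding protein, was higher in ST than in TRAP by 1.38 in RBP4 (adjusted p = 2.27e-05) and 1.60 in VGAT (adjusted p = 4.24e-09). The poly(A) polymerase Tent2 fell by 1.01 in VGAT ST. Of 21 other neuronal RNA-binding proteins, 20 were tested, and 9 were lower in ST than in TRAP in each line (29.1% and 34.0% of all genes) against 3 and 7 higher (26.0% and 37.5%), with medians of −0.21 and −0.18. Elavl2 had a line difference of −1.03 (adjusted p = 0.0184) and Elavl4 of 0.95 (adjusted p = 0.0186) for TRAP less WCH.

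Over the 40 libraries the genes most like each member were found by Pearson's r of log2(cpm + 0.5) among the 10791 genes that averaged 5 cpm or more. Libraries of a group share their fraction and same-numbered libraries of a line share their pool, so r is given as a description. Stau1 was closest to Mapre2 (0.97) and Rhot1 (0.96), Fxr2 to Rnf220 (0.96) and Mrps7 (0.95), Cpeb1 to Relch (0.95) and 4833420G17Rik (0.94) and Cpeb4 to Scai (0.94) and Npat (0.92). Stau2 was closest to Ap1ar (0.92) and Tmem183a (0.92), and Cpeb3 to Tle4 (0.91) and Pds5b (0.89). Pura was closest to Nsd2 (0.90) and Pik3ca (0.90), Fmr1 to Cdc73 (0.88) and Vps37a (0.88), Cpeb2 to Prkab2 (0.86) and Ankrd33b (0.84), and Fxr1 to Dcaf8 (0.86) and Sap30bp (0.86). Among the 10 genes themselves, r was 0.81 for Cpeb3 and Pura, 0.78 for Fmr1 and Pura, 0.78 for Stau1 and Stau2 and 0.74 for Fxr1 and Fxr2, and it was lowest, at −0.25, for Fxr2 and Cpeb4.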

How the data were processed

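RNA was sequenced from 40 libraries (4 fractions of 5 pools in each of 2 lines). The authors made cDNA with an oligo-dT primed low-input kit that does not mark strand, aligned reads with STAR 2.0.4b and assigned unambiguous unique alignments to genes with featureCounts 1.4.5. The deposited files hold whole-number counts per gene. The authors also deposited CPM and RPKM values, which could be recomputed from the counts within 4.07e-10 and 4.91e-11. Counts were used for all tests, after 37 mitochondrial and 353 rRNA or tRNA genes were left out of the library sizes. The oligo-dT priming favours 3′ ends.

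Differences were tested with edgeR 4.0.16 in R 4.3.3 (glmQLFit and glmQLFTest, Benjamini-Hochberg over all genes), with the group as the only variable as in the study. Genes needed 0.5 cpm in 3 libraries. Each line was fitted alone (17043 genes in RBP4, 16990 in VGAT), comparisons between lines on the 30 WCH, TRAP and ST libraries (16898 genes), and those needing SNF on all 40 (17728 genes). Intervals are 95% intervals of the fitted difference. Alternatives were edgeR's likelihood ratio test, DESeq2 1.42.0, TMM factors, library sizes over all genes, no filter on low counts, a replicate block, each pool left out, the library labelled RBP4 ST replicate 4 left out, and all 40 libraries in 1 fit. The tests were checked on simulated counts with 200 genes changed 2-fold. Every gene had the same dispersion there, libraries were independent and no other gene differed between groups. The numbers recovered need not hold for the data, whose pools and fractions differ from this. In RBP4 TRAP against WCH 168 were recovered, in VGAT ST against SNF 166 and in TRAP between the lines 169. In the line difference of ST less SNF 56 were recovered. False calls were 12, 12, 7 and 2 in this order. Within a line, same-numbered libraries come from 1 pool. The mean correlation of their deviations was 0.0019 to 0.365 in RBP4 and 0.061 to 0.460 in VGAT over the 4 comparisons. For different numbers it was −0.090 to −0.0037 in RBP4 and −0.113 to −0.015 in VGAT. RBP4 ST and TRAP were the least paired, with 0.0019 against −0.0037. Between lines a number joins no pools. Same-numbered RBP4 and VGAT libraries still had mean correlations of 0.163 in WCH, 0.132 in TRAP, 0.206 in SNF and 0.037 in ST. Different numbers gave −0.040, −0.030, −0.043 and −0.0087, and the lowest of the 5 same-numbered pairs was negative in each fraction. Replicate 3 had the highest mitochondrial percent in both lines for SNF (40.2 and 41.9) and ST (15.8 and 18.97), though not in RBP4 WCH. An effect shared by number across lines was not itself tested, but the replicate block used the number where a fraction was compared between lines.

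The 10 genes, the 5 gene lists and the markers were chosen with earlier results of these data known. All 10 genes are given. Genes named from a list are among the 2 with the smallest p in each direction of a comparison. Not every such gene or comparison is given. Symbols came from GENCODE M21 for 40340 of 41388 genes, on GRCm38, and 3′ UTR letters from its transcripts.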

Additional observations from a re-analysis of the deposited data

Results flagged for a closer look

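Over 80 groups of 5 libraries (10 genes in 8 groups), 3 held a library that lay far from the other four, where chance gives about 1 in 20. Fxr1 in RBP4 WCH was highest in replicate 5, at 45.8 cpm against 33.0 to 35.5 cpm in the others. Cpeb1 in RBP4 TRAP was highest in the same pool, at 63.8 cpm against 36.02 to 41.0 cpm. Pura in RBP4 SNF was lowest in replicate 2, at 226.7 cpm against 296.5 to 307.6 cpm. For TRAP less WCH, the lines differed in Cpeb2 by log2 0.84 and in Cpeb3 by log2 −0.77, by the test of the difference itself.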

How the results depend on the processing

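Of 150 differences of the 10 genes, 54 were called, and 27 of these kept their call under every alternative. Of 2230 values under alternatives 2102 stayed on their side of the threshold, of which 85 changed sign with no call in either, 92 lost a call, 36 gained one and none of a called difference reversed. DESeq2 lost 16 calls, mostly in SNF against WCH, and TMM factors lost 14, both there and in other comparisons. The causes were not tested.

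Counts of called genes moved by over 1.5 times as follows. In RBP4 TRAP against WCH no genes left out gave 3 of the 10, and leaving out a pool 3 to 5. In RBP4 SNF against WCH DESeq2 gave 4 and TMM factors 6, and in VGAT SNF against WCH DESeq2 gave 5. In RBP4 ST against SNF the 1 gene became 2 with DESeq2, 0 with TMM factors, 4 with no genes left out, 0 with no filter, 2 with the replicate block, 0 without the library labelled RBP4 ST replicate 4, 4 with all 40 libraries and 0 to 2 with a pool left out. In VGAT ST against TRAP all 40 libraries gave 4, and leaving out a pool 3 to 6. Between the lines in ST the count was 1 without the library labelled RBP4 ST replicate 4 and 0 to 1 with a pool left out. The line difference of ST less TRAP had 0 to 1 with a pool left out. The line difference of TRAP less WCH had 0 with no genes left out, 1 with no filter and 1 to 2 with a pool left out.

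With the replicate block, Cpeb1 in RBP4 ST against SNF, Cpeb3 in RBP4 ST against TRAP and Cpeb3 in VGAT ST against SNF gained a call, and no other call changed. Where a fraction was compared between lines, a block by number does not stand for a pool. The lowest count of a member in a library was 113 (Cpeb1), the 5 pools per group limit the precision, and the 15 comparisons share libraries.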
